A study of Mus musculus with 14 samples.

Results

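Macrophages make lipid mediators from arachidonic acid. Across the genotypes of this study 10 genes of that chemistry, the prostaglandin E2 receptors PTGER2 and PTGER4 among them, were followed. They are PTGS1, PTGS2, PTGES, HPGDS, PTGER2, PTGER4, ALOX5, ALOX5AP, LTC4S and LTA4H, spelled in capitals as in the count table, and were taken by name for their place in the prostaglandin and leukotriene pathways, with earlier results of these data known. They are 10 of the 24982 genes listed, and all 10 passed the filter on low counts that left 13136 genes for testing.

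RNA was sequenced from lamina propria macrophages of the colon and cecum of 5-week-old mice, sorted by flow cytometry as live CD45+ cells that were positive for CD64, CD11b and MHCII and negative for Ly6G, CD103 and Ly6C, with 1 library per mouse. All mice were of the C57BL/6 strain and all carried Cdcs1, a colitis susceptibility locus, the WT mice included. WT mice carried Cdcs1 alone (5 mice), IL10RAKO mice were Cdcs1, Il10ra -/- (4 mice), DKO mice were Cdcs1, Il10ra -/-, Ccr2 -/- (4 mice), and CCR2KO was Cdcs1, Ccr2 -/- (1 mouse, not tested). The mice were numbered in the order of their records, and the numbers pair nothing. WT mouse 4 is absent from the edgeR table that the authors deposited, so the tests used the other 12 libraries, 4 per genotype, and its values are given apart. Both deletions are germline deletions, so every cell of the mouse lacked the receptor, and loss of Il10ra, the colitis that the mice were kept to develop and any effect of other cells cannot be told apart. The sex of each mouse is not given in the labels.

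Cyclooxygenases, encoded by PTGS1 (COX-1, largely constitutive) and PTGS2 (COX-2, inducible), turn arachidonic acid into prostaglandin H2, which terminal synthases convert further. PTGES, the inducible microsomal synthase, makes prostaglandin E2, a mediator of fever, pain and vascular leak that in the gut also supports epithelial repair, while HPGDS makes prostaglandin D2. In the other branch ALOX5 (5-lipoxygenase), presented with its substrate by the membrane protein ALOX5AP (FLAP), makes leukotriene A4, from which LTA4H makes the neutrophil attractant leukotriene B4 and LTC4S the cysteinyl leukotriene C4. IL-10 is a known brake on macrophage COX-2.

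In Il10ra-deficient macrophages the inducible prostaglandin E2 enzymes rose and 5-lipoxygenase fell, both by about an order of magnitude. PTGS2 was 12.0-fold higher in IL10RAKO and in DKO than in WT macrophages, and PTGES was 7.85-fold and 9.66-fold higher. ALOX5 was 12.5-fold lower in IL10RAKO and 18.2-fold lower in DKO macrophages, LTC4S was 4.44-fold and 5.26-fold lower, and HPGDS 2.28-fold and 2.62-fold lower. Against WT, 6 of the 10 genes passed an adjusted p of 0.05 in IL10RAKO, where 15.8% of all tested genes did, and 5 of 10 passed in DKO, where 18.5% did. In IL10RAKO 3 were higher (8.7% of all tested genes) and 3 lower (7.1%), and in DKO 2 were higher (9.23%) and 3 lower (9.22%). No gene of the 10 passed between DKO and IL10RAKO.

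The 250 bases before the annotated start are shown for the genes with large changes, PTGS2 and PTGES among those that rose and ALOX5 and LTC4S among those that fell, so that their upstream sequence can be read beside their counts. They come from RefSeq (GRCm38.p6, the build that is also called mm10), each is written 5′ to 3′ on the strand of its gene, and capitals mark matches to the C/EBP motif TTGCNNAA or the GC box GGGCGG, on either strand. The windows are chr1:150099781-150100030 on the plus strand for PTGS2 and, on the minus strand, chr2:30903298-30903547 for PTGES, chr6:116461179-116461428 for ALOX5 and chr11:50238533-50238782 for LTC4S.
PTGS2: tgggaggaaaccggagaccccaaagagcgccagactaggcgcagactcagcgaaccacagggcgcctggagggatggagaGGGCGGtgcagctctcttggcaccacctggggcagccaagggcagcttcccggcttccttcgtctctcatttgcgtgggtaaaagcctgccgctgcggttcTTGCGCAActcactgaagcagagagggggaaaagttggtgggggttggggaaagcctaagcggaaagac
PTGES: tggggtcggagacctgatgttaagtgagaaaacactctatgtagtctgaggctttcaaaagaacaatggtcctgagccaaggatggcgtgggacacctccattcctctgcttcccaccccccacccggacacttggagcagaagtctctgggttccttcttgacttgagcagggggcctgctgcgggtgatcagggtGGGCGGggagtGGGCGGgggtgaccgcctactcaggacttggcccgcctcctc
ALOX5: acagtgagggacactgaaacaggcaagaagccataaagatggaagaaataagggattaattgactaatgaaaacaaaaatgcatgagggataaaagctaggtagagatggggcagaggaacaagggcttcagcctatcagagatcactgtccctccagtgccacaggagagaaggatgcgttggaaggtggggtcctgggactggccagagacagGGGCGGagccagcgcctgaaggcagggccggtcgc
LTC4S: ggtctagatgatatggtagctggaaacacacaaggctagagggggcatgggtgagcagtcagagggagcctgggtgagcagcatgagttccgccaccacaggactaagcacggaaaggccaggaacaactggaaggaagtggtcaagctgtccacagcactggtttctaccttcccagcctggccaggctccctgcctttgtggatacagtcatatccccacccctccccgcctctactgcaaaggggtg
The C/EBP match of PTGS2, TTGCGCAA, lay 69 to 62 bases before the start, and its GC box 170 to 165 bases before it. PTGES had GC boxes 53 to 48 and 42 to 37 bases before the start, ALOX5 had 1 at 35 to 30 bases, and the LTC4S window held neither motif. The window of PTGER4, a gene that passed in neither comparison with WT, is not printed. It had GC boxes at 148 to 143, 143 to 138, 95 to 90 and 42 to 37 bases. Over 32536 RefSeq promoters of mouse genes, windows of this length held the GC box in 33% and the C/EBP motif in 9.57%. The TATA box TATAAA (12.3% of promoters), the cyclic AMP element TGACGTCA (1.56%), the AP-1 motif TGANTCA (6.73%), the STAT motif TTCNNNGAA (7.04%) and the kappaB motif (3.92%) were searched on both strands and had no match in these windows, nor in those of the other 5 genes with an entry. C/EBP, the GC box and the E-box CACGTG (6.04%, no match) were added after the sequences had been seen. Of the 10 genes, 9 matched an entry, with ALOX5AP as the other one. The RefSeq start of PTGES lies inside the longer gene that GENCODE vM21 draws at chr2:30889471-30929863. The RefSeq starts of LTC4S and HPGDS also lie inside their GENCODE genes, at chr11:50236461-50238616 and chr6:65117293-65144908. Sequence outside the 250 bases before each RefSeq start was not searched.

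The deletions were visible in the counts. Levels are CPM values, which are reads scaled for the size of the library and, by the TMM method, for its composition. IL10RA was at 216.8 to 379.3 CPM in WT, 4.88 to 11.2 in IL10RAKO mice, and 3.41 to 7.58 in DKO mice, and CCR2 was at 513.3 to 701.5 in WT, 360.7 to 626.6 in IL10RAKO mice, and 3.92 to 6.67 in DKO mice. The 12 libraries held 13085287 to 21216468 counted reads, and 3 reads, taken as the floor, came to 0.124 to 0.211 CPM. The 9 macrophage markers summed to 19587.9 to 24494.8 CPM in WT, 26359.7 to 35873.5 in IL10RAKO mice, and 21701.5 to 29102.2 in DKO mice, most of it from the MHCII gene H2-AB1 (14010.7 to 28634.0 CPM over the 12 libraries). Of the 9, H2-AB1 and FCGR1 (CD64) were higher in IL10RAKO, and in DKO MERTK was higher while ADGRE1 and CX3CR1 were lower, with CX3CR1 at 318.3 to 430.8 CPM in WT against 134.7 to 216.3 in DKO mice. Other cells left traces: the 6 fibroblast markers summed to 294.0 to 576.6 CPM in WT against 15 to 53.6 in IL10RAKO mice, and 16.1 to 66.9 in DKO mice, and all 6 were lower in both. Epithelial markers reached 1013.4 CPM in WT mouse 3 and 2614.7 in WT mouse 4, B and plasma cell markers spanned 395.0 to 1877.7 CPM over the 12 libraries, and T and NK cell markers did not exceed 17.8 CPM. Dendritic cell markers summed to 21.4 to 107.1 CPM in WT, 55.8 to 140.4 in IL10RAKO mice, and 44.1 to 91.1 in DKO mice. Of these 5, XCR1 and CLEC9A were higher in IL10RAKO and CLEC9A in DKO, with XCR1 at 1.45 to 3.39 CPM in WT against 6.47 to 18.3 in IL10RAKO mice. The part of these other cells in the results that follow was not tested. In these bulk samples fewer cells of a type and less RNA per cell cannot be told apart.

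**Figure D1:**
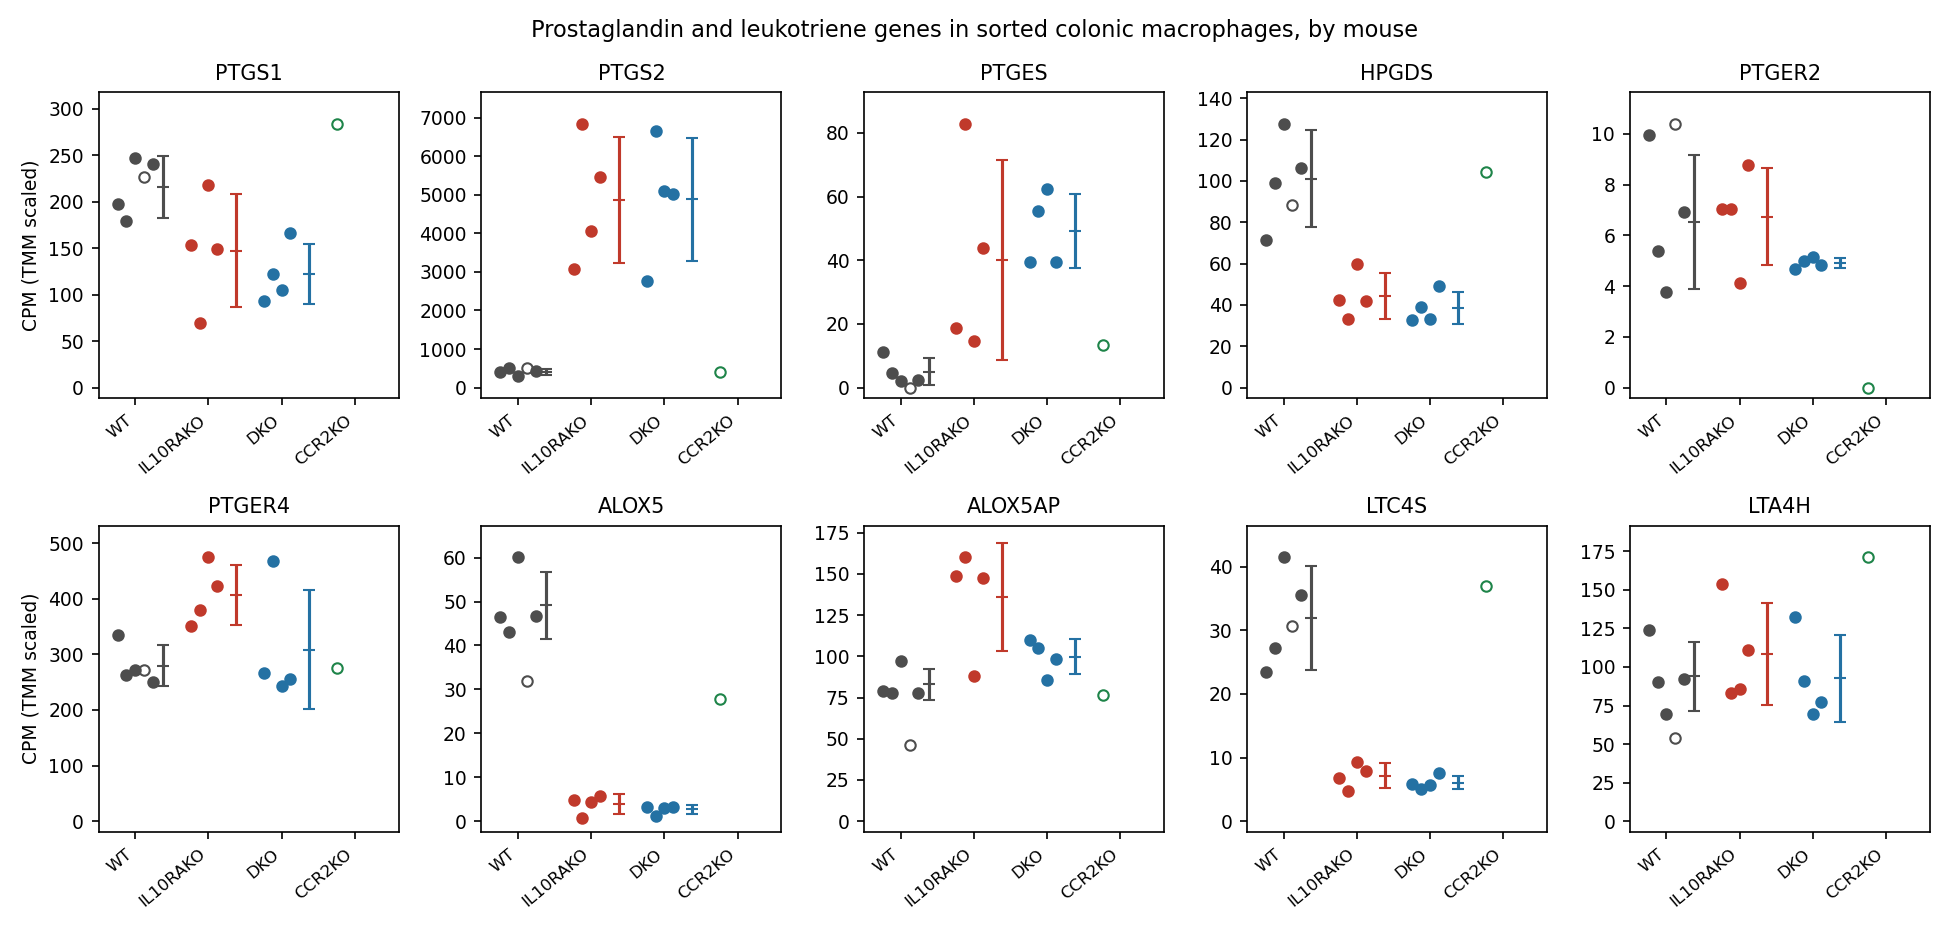
Level of each of the 10 genes by mouse, in CPM after TMM scaling on a linear axis that differs between panels. Filled points are the 4 tested mice of a genotype, with their mean and SD beside them, and hollow points are WT mouse 4 and the CCR2KO mouse. PTGS2 lies at 306.8 to 504.3 CPM in the 4 WT mice and at 2773.2 CPM or more in the 8 Il10ra-deficient mice, while ALOX5 lies at 43.1 CPM or more in the 4 tested WT mice, at 31.8 in WT mouse 4 and at 5.81 or less in those 8.

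PTGS2, the inducible cyclooxygenase (chr1:150100031-150108227 on the plus strand), was at 394.9, 504.3, 306.8 and 421.9 CPM in WT mice 1, 2, 3 and 5. It was at 3073.4, 6840.8, 4072.7 and 5469.8 CPM in the 4 IL10RAKO mice and at 2773.2, 6640.5, 5106.4 and 5013.5 CPM in the 4 DKO mice. Every Il10ra-deficient mouse stood above every WT mouse, and the ranges of the IL10RAKO and DKO mice covered each other almost completely. The log2 fold change over WT was 3.58 in IL10RAKO (standard error 0.305, adjusted p = 3.29e-06, edgeR quasi-likelihood test) and 3.58 in DKO mice (standard error 0.305, adjusted p = 2.7e-06, edgeR), in 4 of 4 mice each. By level, PTGS2 ranked between 181 and 349 among all genes in the WT mice, between 13 and 29 in the IL10RAKO mice and between 15 and 31 in the DKO mice. It took 0.286% to 0.625% of all counted reads in IL10RAKO macrophages, against 0.0353% to 0.0594% in WT. IL10RAKO mouse 2, the highest of the 12 in PTGS2, was also the highest in the summed markers of neutrophils (104.9 CPM) and of monocytes (1047.1 CPM) and the lowest in ALOX5. The part of those cells in its values was not tested, and without this mouse the log2 fold change of PTGS2 in IL10RAKO was 3.38.

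PTGS1, the constitutive cyclooxygenase (chr2:36230426-36252272), was at 197.1, 178.8, 246.5 and 240.9 CPM in the same WT mice. Its level was 153.0, 69.6, 217.6 and 149.0 CPM in IL10RAKO mice, and 93.1, 121.8, 105.5 and 166.8 CPM in DKO mice. The DKO mice all lay below the WT mice, while IL10RAKO mouse 3 lay within the WT range. Neither difference passed the test, at a log2 fold change of -0.55 in IL10RAKO (95% interval -1.15 to 0.05, adjusted p = 0.209, edgeR) and -0.83 in DKO (95% interval -1.42 to -0.23, adjusted p = 0.0548, edgeR). The DKO value was at the edge of the threshold and passed in 11 of 22 alternatives, DESeq2 among them (adjusted p = 0.0192). Read against each other within a library, PTGS2 had 1.24 to 2.82 times the reads of PTGS1 in WT mice, 18.7 to 98.3 times in IL10RAKO mice and 29.8 to 54.5 times in DKO mice. Such ratios are not corrected for exon length and serve to compare mice, not the genes.

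PTGES, which completes prostaglandin E2, was low in WT mice, at 11.3, 4.51, 2.19 and 2.26 CPM (34 to 237 reads). It was at 18.8, 82.9, 14.5 and 44.0 CPM in IL10RAKO mice, and 39.6, 55.5, 62.5 and 39.4 CPM in DKO mice. No Il10ra-deficient mouse fell into the WT range, but the IL10RAKO mice differed among themselves by more than the DKO mice, with an SD of 31.4 around a mean of 40.1 CPM against 11.6 around 49.3 CPM. The log2 fold change was 2.97 in IL10RAKO (standard error 0.589, adjusted p = 0.00315, edgeR) and 3.27 in DKO mice (standard error 0.596, adjusted p = 0.00152, edgeR). The mouse highest in PTGES, IL10RAKO mouse 2, was also the highest in the 7 neutrophil markers, at 104.9 summed CPM against 5.25 to 11.4 in the other IL10RAKO mice, 34 to 59.5 in DKO and 1.76 to 7.92 in WT mice. Of the 7 markers 5 were tested and 4 were higher in both knockout genotypes, with S100A8 at up to 0.732 CPM in WT, 0.808 to 42.8 in IL10RAKO mice, and 9.82 to 21.4 in DKO mice. The part of neutrophil RNA in the PTGES values was not tested. LY6G, the neutrophil marker that the sort selected against, did not exceed 0.747 CPM in any of the 12 mice. The size of the PTGES change leaned on single mice, since the log2 fold change in IL10RAKO was 2.34 without IL10RAKO mouse 2 and 3.75 without WT mouse 1, and it was 4.05 in DKO without WT mouse 1, all past the threshold.

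HPGDS, the prostaglandin D2 synthase of hematopoietic cells (chr6:65117293-65144908), went the other way. It was at 71.3, 99.2, 127.7 and 106.3 CPM in WT, 42.6, 33.4, 59.9 and 41.8 CPM in IL10RAKO mice, and 32.6, 39.2, 33.3 and 49.4 CPM in DKO mice. All 8 Il10ra-deficient mice lay below the lowest WT mouse. HPGDS fell by 1.19 on the log2 scale in IL10RAKO (standard error 0.222, adjusted p = 0.00213, edgeR) and fell by 1.39 in DKO mice (standard error 0.223, adjusted p = 0.000593, edgeR). Its upstream window, not printed, had 1 C/EBP match and no GC box.

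Of the prostaglandin E2 receptors that signal through cyclic AMP, PTGER4 (EP4) had far more reads than PTGER2 (EP2) over exons of similar length (6.648 and 5.193 kb). PTGER4 was at 334.2, 263.2, 272.3 and 249.8 CPM in WT, 351.5, 379.9, 474.8 and 423.3 CPM in IL10RAKO mice, and 266.5, 468.4, 242.6 and 255.1 CPM in DKO mice. The 4 IL10RAKO mice lay above the 4 WT mice, yet the difference did not pass (log2 fold change 0.54, 95% interval 0.10 to 0.98, adjusted p = 0.0956, edgeR), and it did pass when DKO mouse 2 was left out of the shared fit (adjusted p = 0.0287, edgeR). In DKO the log2 fold change was 0.14 (95% interval -0.30 to 0.58), and 3 of the 4 DKO mice lay below the WT mean while DKO mouse 2 lay far above it. PTGER2 was at 9.97, 5.39, 3.77 and 6.92 CPM in WT, at 4.14 to 8.78 in IL10RAKO mice, and at 4.69 to 5.13 in DKO mice, which overlapped throughout (adjusted p = 0.939 and 0.435, edgeR). PTGER4 had 33.5 to 114.6 times the reads of PTGER2 in the 12 libraries.

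**Figure D2:**
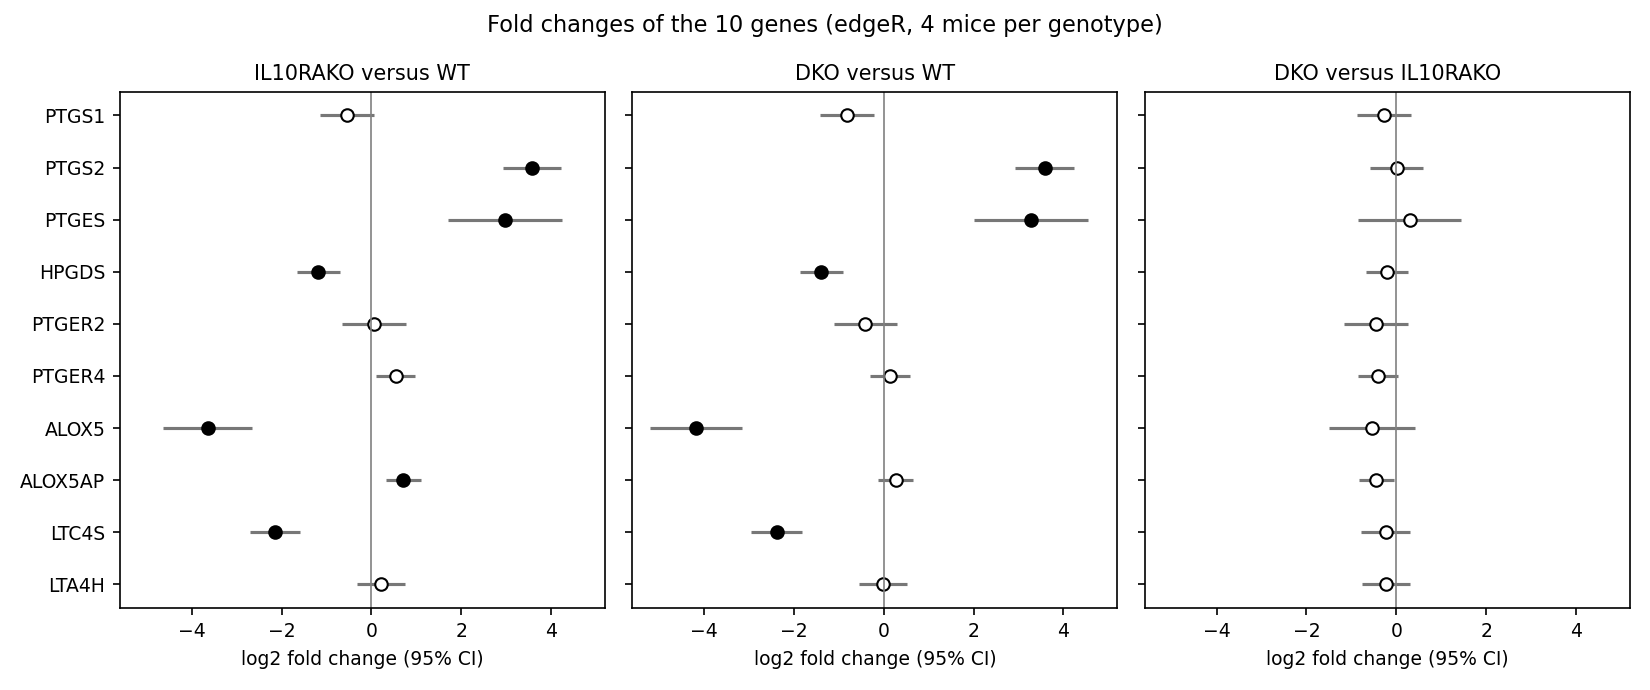
Log2 fold change of the 10 genes in the 3 comparisons, with 95% intervals from the edgeR fit of 4 mice per genotype. Filled points have an adjusted p under 0.05. The filled points lie on both sides of 0 in the comparisons with WT, from -4.19 for ALOX5 in DKO to 3.58 for PTGS2, and none is filled between DKO and IL10RAKO.

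In the leukotriene branch, ALOX5 (5-lipoxygenase, chr6:116410077-116461178 on the minus strand) was at 46.4, 43.1, 60.1 and 46.8 CPM in WT mice. Only 11 to 88 reads per library remained in the Il10ra-deficient mice, which came to 4.80, 0.685, 4.40 and 5.81 CPM in IL10RAKO mice, and 3.14, 1.24, 3.09 and 3.26 CPM in DKO mice. The lowest WT mouse stood several times above the highest of the 8 others, and those 8 remained above the floor of 3 reads. ALOX5 fell by 3.65 on the log2 scale in IL10RAKO (standard error 0.464, adjusted p = 0.000105, edgeR) and fell by 4.19 in DKO mice (standard error 0.478, adjusted p = 3.57e-05, edgeR).

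ALOX5AP, the 5-lipoxygenase activating protein (chr5:149264767-149288153), did not follow its partner. It was at 79.1, 77.7, 97.2 and 77.7 CPM in WT, 148.9, 160.1, 87.8 and 147.3 CPM in IL10RAKO mice, and 109.7, 105.2, 85.5 and 98.4 CPM in DKO mice. It rose in IL10RAKO macrophages (log2 fold change 0.71, standard error 0.184, adjusted p = 0.0168, edgeR, 4 of 4 mice above the WT mean), although IL10RAKO mouse 3 lay within the WT range. IL10RAKO mouse 2, the highest in neutrophil markers, was also the highest in ALOX5AP, a gene that neutrophils express too. Those markers summed to 9.87, 104.9, 5.25 and 11.4 CPM in the 4 IL10RAKO mice, in the order above, and to 34 to 59.5 CPM in DKO mice. The part of neutrophil RNA was not tested here either. The call was lost with library totals in place of TMM (0.39, adjusted p = 0.119, edgeR) and without IL10RAKO mouse 2 (0.63, adjusted p = 0.0531, edgeR). In DKO the log2 fold change was 0.26 (95% interval -0.13 to 0.66, adjusted p = 0.35, edgeR), and the DKO and IL10RAKO values were not shown to differ (-0.45, 95% interval -0.84 to -0.06, unadjusted p = 0.0282, adjusted p = 1, edgeR). Within a library ALOX5AP had 1.62 to 1.80 times the reads of ALOX5 in WT mice, a narrow range, against 20.0 to 233.9 times in IL10RAKO mice, and 27.7 to 84.6 times in DKO mice.

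LTC4S, the leukotriene C4 synthase (chr11:50236461-50238616), was at 23.4, 27.2, 41.5 and 35.5 CPM in WT, 6.74, 4.67, 9.35 and 7.92 CPM in IL10RAKO mice, and 5.79, 5.10, 5.76 and 7.56 CPM in DKO mice. The groups did not overlap with WT, and LTC4S fell by 2.15 on the log2 scale in IL10RAKO (standard error 0.259, adjusted p = 6.8e-05, edgeR) and fell by 2.39 in DKO mice (standard error 0.261, adjusted p = 2.53e-05, edgeR). An antisense gene, Gm26542, covers 26.4% of its exon bases, and with the strand setting of the counting not given their reads cannot be told apart. The same holds for 13.3% of the exon bases of ALOX5AP and 15.3% of those of PTGER4. PTGES, ALOX5AP and LTC4S belong to one family of small membrane proteins, MAPEG, of which PTGES rose and LTC4S fell in both genotypes, while ALOX5AP passed in IL10RAKO macrophages and did not pass in DKO.

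LTA4H, the hydrolase that makes leukotriene B4 (chr10:93453411-93484875), was at 123.7, 90.4, 69.5 and 92.5 CPM in WT, 153.9, 83.4, 85.5 and 110.9 CPM in IL10RAKO mice, and 132.7, 91.2, 69.5 and 77.4 CPM in DKO mice. The 3 genotypes overlapped. The log2 fold change was 0.21 in IL10RAKO (95% interval -0.33 to 0.74) and -0.02 in DKO (95% interval -0.55 to 0.51), and both signs turned under other settings.

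The fall of ALOX5, LTC4S and HPGDS shared its split by genotype with the fall of the fibroblast markers given above. Within WT those markers summed to 294.0, 576.6, 300.8 and 552.3 CPM in mice 1, 2, 3 and 5, where ALOX5 was at 46.4, 43.1, 60.1 and 46.8 CPM. The part of fibroblast RNA in the 3 genes was not tested. ALOX5, LTC4S and HPGDS are also known from mast cells. The 11 mast cell markers summed to 15.1 to 38.6 CPM in WT, 124.8 to 225.0 in IL10RAKO mice, and 168.8 to 211.0 in DKO mice. Of the 4 that were tested, KIT and HDC were higher in both knockout genotypes, with HDC at 0.372 to 2.19 CPM in WT against 31.7 to 128.4 in IL10RAKO mice, and 57.0 to 113.2 in DKO mice. The proteases and receptor chains that define mast cells were near 0: CPA3 did not exceed 2.11 CPM in any of the 12 mice, MCPT1 did not exceed 4.72 and was at 0 reads in every IL10RAKO and DKO mouse, and FCER1A did not exceed 1.29. The 5 eosinophil markers summed to no more than 15 CPM and EPX among them was at 0 reads throughout. Monocyte markers moved with the PTGS2 rise and summed to 122.4 to 184.4 CPM in WT, 366.5 to 1047.1 in IL10RAKO mice, and 431.3 to 697.8 in DKO mice. LY6C2 and PLAC8, 2 of the 5, passed the test in both, with LY6C2 at 5.79 to 7.63 CPM in WT, 38.3 to 176.4 in IL10RAKO mice, and 74.9 to 88.9 in DKO mice, and their part in it was not tested.

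**Figure D3:**
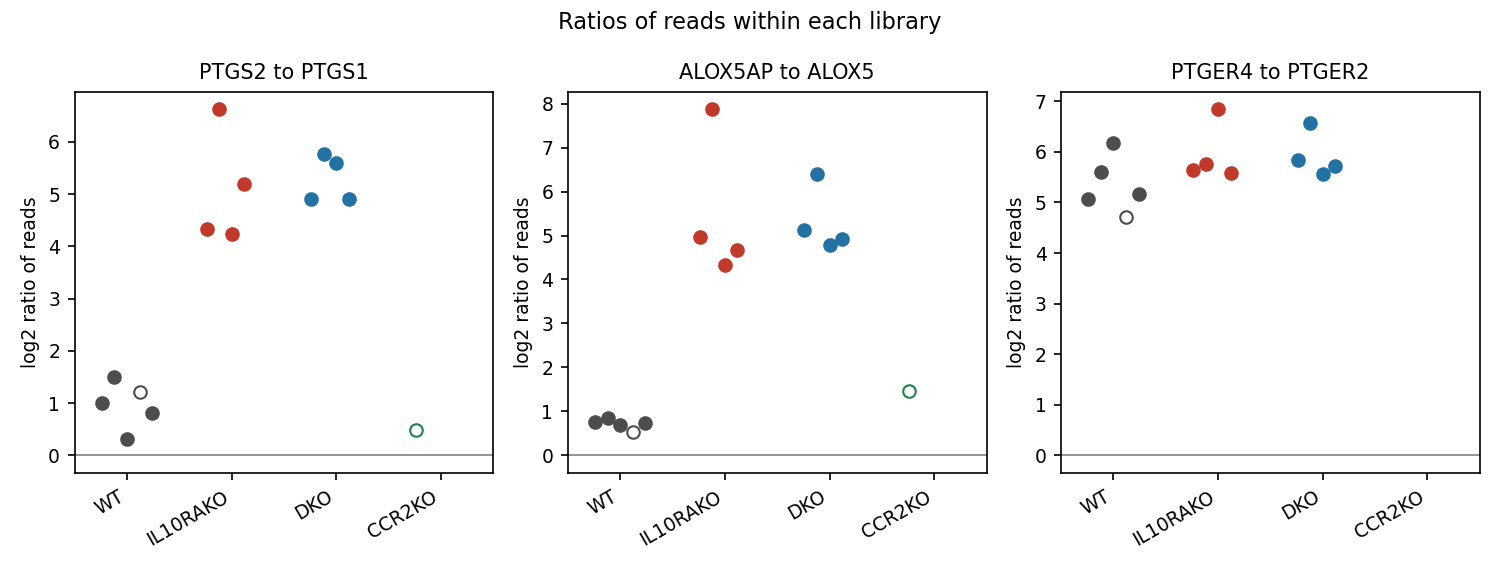
Log2 ratio of the reads of one gene to those of another within each library, by genotype. Filled points are the tested mice and hollow points are WT mouse 4 and the CCR2KO mouse, which has no point for PTGER4 to PTGER2 because it had no PTGER2 read. Among the tested mice, PTGS2 to PTGS1 lies at 0.32 to 1.5 in WT and at 4.23 or more in IL10RAKO and DKO, ALOX5AP to ALOX5 at 0.69 to 0.85 and 4.32 or more, and PTGER4 to PTGER2 at 5.07 or more in each genotype, while WT mouse 4 lies at 1.21, 0.54 and 4.71.

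Between DKO and IL10RAKO macrophages, which asks what loss of Ccr2 added, 0 of the 10 genes passed in edgeR, DESeq2 and the edgeR exact test, where edgeR called 0.0457% of all tested genes. At an unadjusted p under 0.05 there was 1 of 10, ALOX5AP, against 2.95% of all tested genes. The intervals show what size of difference the 4 mice per genotype leave possible. For PTGS2 the log2 difference was 0.01 (95% interval -0.58 to 0.60), for PTGES 0.30 (-0.85 to 1.45), for ALOX5 -0.54 (-1.50 to 0.42) and for LTC4S -0.24 (-0.79 to 0.30). Both knockout genotypes were compared with the same WT mice, so their 2 sets of fold changes are not independent of each other. The median log2 fold change of the 10 genes was 0.13 in IL10RAKO and -0.22 in DKO, beside -0.07 and -0.06 for all tested genes. The groups did not overlap with WT for 6 of 10 genes in each comparison, which held for 18.2% of all tested genes in IL10RAKO and 22.2% in DKO, and for 0 of 10 between DKO and IL10RAKO, against 2.41%.

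Levels of different genes can be set beside each other per length of exon. That length was the merged exons of all GENCODE vM21 transcripts of a gene, so the order between genes depends on the annotation. PTGS2 led in all 3 genotypes, at 88.9 ± 17.8 CPM per kb in WT, 1062.0 ± 358.9 in IL10RAKO mice, and 1066.2 ± 347.7 in DKO mice (SD, n = 4). In WT it was followed by ALOX5AP (58.4 ± 6.73), PTGS1 (55.6 ± 8.53), PTGER4 (42.1 ± 5.62) and LTC4S (31.4 ± 8.02), of which neighbours lay within or close to each other's spread. HPGDS (15.7 ± 3.62), LTA4H (15.4 ± 3.66) and ALOX5 (12.0 ± 1.83) formed a second group that also overlapped, and PTGES (1.29 ± 1.09) and PTGER2 (1.25 ± 0.509) came last. In DKO macrophages PTGES had moved up to 12.5 ± 2.96 CPM per kb, close to LTA4H at 15.2 ± 4.61, and ALOX5 had moved to the last place at 0.654 ± 0.235. The order in IL10RAKO was that of DKO except for LTC4S (7.07 ± 1.95) and HPGDS (6.91 ± 1.73), which lay within each other's spread.

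Across the 12 libraries, the genes whose log2 CPM ran most closely with PTGS2 were TXNRD1 (Pearson r 0.991), N4BP1 (0.988), TNFAIP2 (0.988), CD80 (0.987) and CD274 (0.986), out of 13135. CD80 and CD274 encode a costimulatory and a checkpoint ligand. With ALOX5 they were WRB (0.976), FCNA (0.974), RHBDF1 (0.970), LTC4S (0.967) and GAS6 (0.965). LTC4S was thus the fourth nearest gene to ALOX5, HPGDS stood at place 120 (0.905) and PTGS1 at 597 (0.802), while PTGES was at place 315 for PTGS2 (0.912). The points share the split between WT and the other genotypes, so these values describe mainly that split.

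Around these 10 genes, 56 further genes of phospholipase A2, prostanoid and leukotriene synthesis, breakdown, transport and reception were listed, of which 38 passed the filter on low counts. Against WT, 6 of the 38 passed in IL10RAKO and 6 in DKO, 3 higher and 3 lower each time, a share near those of all tested genes (15.8% and 18.5%). Their median log2 fold change was -0.06 in IL10RAKO and -0.12 in DKO, beside -0.07 and -0.06 for all tested genes, and 0 of 38 passed between DKO and IL10RAKO (3 at an unadjusted p under 0.05, 1 in the edgeR exact test and 0 in DESeq2). None of the 5 other prostanoid synthesis genes, the 5 other prostanoid receptors, the 3 leukotriene receptors and the 3 other lipoxygenases that were tested passed.

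Among the phospholipase A2 genes, PLA2G7 encodes an enzyme that hydrolyses platelet-activating factor and oxidised phospholipids. It was at 334.7 to 556.8 CPM in WT, 1012.4 to 1818.5 in IL10RAKO mice, and 1847.8 to 1983.7 in DKO mice. The groups did not overlap, and it was 3.49-fold higher in IL10RAKO (log2 1.80, standard error 0.203, adjusted p = 4e-05, edgeR) and 4.58-fold higher in DKO macrophages (log2 2.19, standard error 0.206, adjusted p = 6.46e-06, edgeR). PLA2G4A, the cytosolic phospholipase that releases arachidonic acid, was at 62.8 ± 9.61 CPM in WT, 96.9 ± 23.3 in IL10RAKO mice, and 107.2 ± 9.08 in DKO mice (SD, n = 4). Its adjusted p was 0.0361 in IL10RAKO mice, and 0.0105 in DKO (edgeR), and the IL10RAKO call was lost when any of WT mice 1, 2 and 5 or IL10RAKO mice 1, 2 and 4 was left out (log2 fold change 0.55 to 0.67, adjusted p = 0.055 to 0.106, edgeR). It was also lost with upper quartile factors (0.52, adjusted p = 0.084, edgeR), with 13 libraries (0.57, adjusted p = 0.0505, edgeR) and in a fit of the 2 genotypes alone (0.62, adjusted p = 0.085, edgeR). With library totals in place of TMM, PLA2G4A passed in neither genotype (0.30 and 0.52, adjusted p = 0.242 and 0.0544, edgeR).

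On the side of removal, HPGD, the dehydrogenase that inactivates prostaglandins, was at 61.1, 96.4, 126.0 and 77.4 CPM in WT, 26.2, 6.78, 28 and 22.0 CPM in IL10RAKO mice, and 7.94, 9.02, 8.85 and 18.5 CPM in DKO mice. No IL10RAKO or DKO mouse reached the WT range. HPGD fell by 2.12 on the log2 scale in IL10RAKO (standard error 0.396, adjusted p = 0.00212, edgeR) and fell by 3.02 in DKO mice (standard error 0.412, adjusted p = 0.000159, edgeR). SLCO2A1, the transporter that takes prostaglandins up for breakdown, was at 10.5, 2.23, 42.4 and 52.2 CPM in WT, at 0 to 0.758 CPM in IL10RAKO mice, and at 2.32 to 6.32 CPM in DKO mice. The WT mice alone spread over more than an order of magnitude, and WT mouse 2 lay below every DKO mouse. Its adjusted p was 0.000517 in IL10RAKO and 0.0212 in DKO (edgeR), and the DKO call was lost with 13 libraries (log2 fold change -2.52, adjusted p = 0.189, edgeR) and when any of WT mice 3 and 5 or DKO mice 1, 2 and 3 was left out (-2.82 to -2.30, adjusted p = 0.0532 to 0.0754, edgeR). In IL10RAKO its log2 fold change of -6.35 rested on 0 to 0.758 CPM and was -7.39 without IL10RAKO mouse 3, and such a fitted value of a gene near 0 depends on the fit. HPGD, SLCO2A1 and the fibroblast markers were all lower in IL10RAKO and DKO than in WT, a split by genotype. Within WT the fibroblast markers summed to 294.0, 576.6, 300.8 and 552.3 CPM in mice 1, 2, 3 and 5, an order that neither gene followed. Endothelial markers summed to 79.7 to 220.4 CPM in WT against 63.8 to 102.4 in IL10RAKO mice, and 50.9 to 84.9 in DKO mice. The part of fibroblast and endothelial cells was not tested.

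The dipeptidases that turn leukotriene D4 into E4 moved apart. DPEP2 was at 41.2 CPM on average in WT, 72.9 in IL10RAKO mice, and 70.3 in DKO macrophages, with adjusted p = 0.0128 and 0.0161 (edgeR), and passed in neither genotype with library totals (adjusted p = 0.0697 and 0.0597, edgeR) nor in DKO without DKO mouse 2 (adjusted p = 0.0554, edgeR). DPEP1 was at 1.62, 2.05, 17.1 and 2.73 CPM in WT and at no more than 0.988 CPM in IL10RAKO and DKO mice. Its adjusted p was 0.0219 in IL10RAKO and 0.0318 in DKO (edgeR). Its WT value rested on WT mouse 3, the mouse with the highest epithelial markers among the 4, and without it neither call held (log2 fold change -2.81 and -2.26, adjusted p = 0.118 and 0.184, edgeR). The IL10RAKO call was also lost without IL10RAKO mouse 2 (adjusted p = 0.0546, edgeR), and the DKO call without any one of DKO mice 1, 2 and 3 (adjusted p = 0.0856 to 0.0977, edgeR). In WT mouse 4, whose epithelial markers were higher still, DPEP1 was at 96.1 CPM, and the part of epithelial RNA in these values was not tested.

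**Figure D4:**
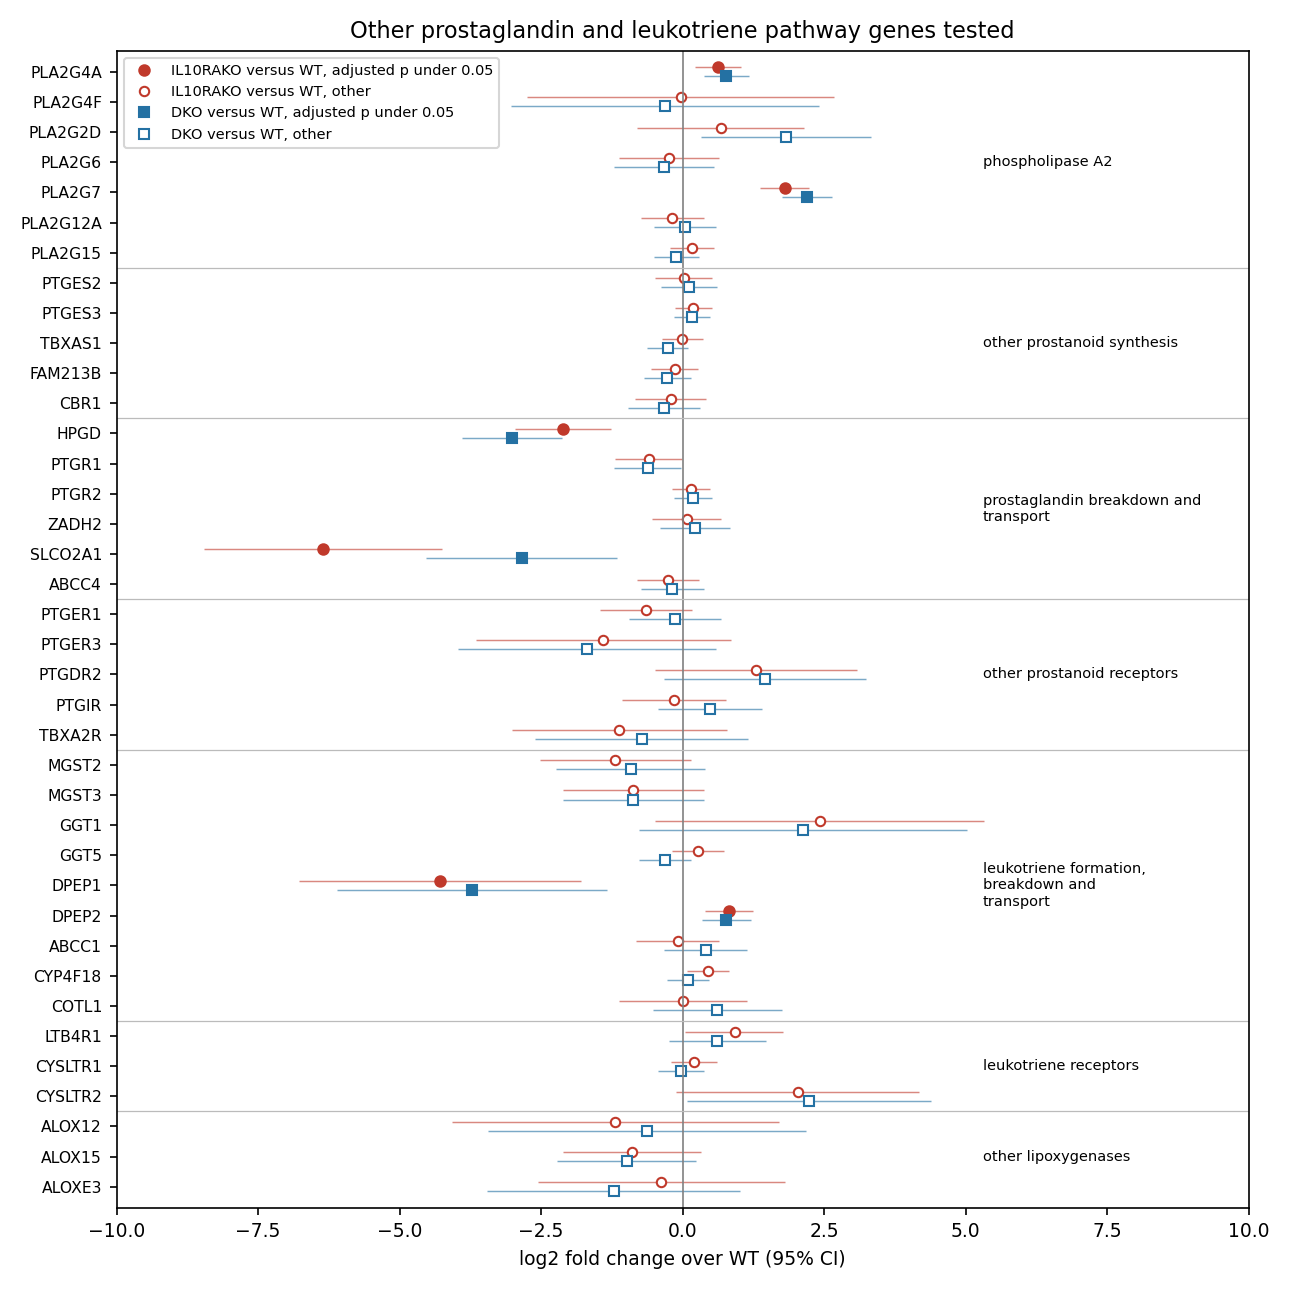
Log2 fold change over WT, with 95% intervals, of the 38 tested genes of the wider pathway, grouped by role. Circles are IL10RAKO and squares DKO, and filled symbols have an adjusted p under 0.05. Filled symbols stand at PLA2G4A, PLA2G7 and DPEP2 to the right of 0 and at HPGD, SLCO2A1 and DPEP1 to the left, and the interval of most other genes includes 0.

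The libraries outside the test gave the following values. WT mouse 4 had PTGS2 at 521.9, PTGS1 at 226.3, HPGDS at 88.6, PTGER4 at 272.0, ALOX5 at 31.8, ALOX5AP at 46.3, LTC4S at 30.7 and LTA4H at 53.7 CPM, and no PTGES read, where 3 reads would be 0.209 CPM. Its ALOX5 lay below the other WT mice and above all Il10ra-deficient mice. The CCR2KO mouse had PTGS2 at 398.3, HPGDS at 104.3, LTC4S at 37.0 and ALOX5AP at 76.7 CPM, all within or near the range of the WT mice, and ALOX5 at 27.8 CPM, below the 5 WT mice. It had no PTGER2 read, where 3 reads would be 0.148 CPM. A single mouse gives no measure of spread, so no comparison with Ccr2 loss on its own was made. With all 13 libraries of the 3 genotypes the same number of the 10 genes, 6, passed in IL10RAKO, and 6 in place of 5 passed in DKO.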

How the data were processed

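The authors sorted the cells, made cDNA with SmartSeq v4 reagents and, per the labels, used bcl2fastq 2.20, STAR 2.5.1b on mm10 and edgeR 3.34.0. The table of counts that they deposited holds whole reads, not normalized, of 14 libraries over 24982 genes. They also deposited a score per gene and library, edgeR pseudocounts for 13338 genes in 12 libraries, which served here only to see which libraries it held. Annotation, strand and handling of reads with several alignments are not given in the sources used here. The protocol names no molecular identifiers, so the floor of 3 reads covers counting error only.

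Counts of the 12 libraries were analysed with edgeR 4.0.16 in R 4.3.3: filterByExpr by genotype (minimum count 10, 13136 genes), TMM, a single fit of 3 genotypes with glmQLFit, glmQLFTest, and Benjamini-Hochberg adjustment over all tested genes, with a threshold of 0.05. Standard errors and intervals came from that fit, and nearest genes from Pearson r of log2 CPM (prior count 2). Each library was made from 1 mouse. No batch or sex is given per mouse. All pairs of libraries of a genotype differed by far more than sampling noise (chi-square per degree of freedom of at least 30.0). Positions are from GENCODE vM21 (GRCm38), to which 24490 listed genes matched.

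Alternatives were DESeq2 1.42.0, the edgeR exact test, the bias-adjusted deviance of edgeR 4, RLE, upper quartile and no scaling factors, 2 other filters, 13 libraries, the 2 genotypes alone, a minimum absolute log2 fold change of 1, and leaving out each mouse. The members, the pathway and marker lists and the tests were chosen with earlier results of these data known. Named were the 10 genes, other pathway genes with an adjusted p under 0.05 in any comparison, the targeted genes, cell type markers, and the 5 genes nearest to PTGS2 and to ALOX5. Protein sequences were not used here.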

Additional observations from a re-analysis of the deposited data

Results flagged for a closer look

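With 4 mice per genotype, a mouse was marked where its gap to the nearest other mouse took up more than 0.829 of the range of its genotype (Dixon's 95% limit). Of 30 sets of 4 mice examined (10 genes in 3 genotypes) 3 were marked, and chance marks about 5% of such sets. PTGER4 stood at 468.4 CPM in DKO mouse 2 against 242.6 to 266.5 in the other DKO mice, and ALOX5 at 1.24 CPM in the same mouse (20 reads) against 3.09 to 3.26. ALOX5AP stood at 97.2 CPM in WT mouse 3 against 77.7 to 79.1 in the other tested WT mice.

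The CCR2KO mouse, which entered no test, lay above all 5 WT mice in PTGS1 (283.8 CPM, WT up to 246.5), PTGES (13.3 CPM, WT up to 11.3) and LTA4H (171.2 CPM, WT up to 123.7). Its B and plasma cell markers summed to 2604.0 CPM (WT up to 1823.6) and its fibroblast markers to 679.4 CPM (WT up to 576.6). It is 1 mouse, and neither these differences nor the part of other cells in them was tested.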

How the results depend on the processing

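PTGS2, PTGES, HPGDS, ALOX5 and LTC4S passed in both comparisons with WT under each of 22 alternatives, with log2 fold changes in IL10RAKO of 3.25 to 3.75, 2.34 to 3.75, -1.50 to -1.05, -3.97 to -3.29 and -2.47 to -1.98. PTGS1 in IL10RAKO passed only with library totals (-0.86, adjusted p = 0.0491, edgeR). Totals in place of TMM moved the median of all genes from -0.07 to -0.38 in IL10RAKO and from -0.06 to -0.32 in DKO, and the share of calls that were higher from 55.1% and 50.0% to 24% and 26.1% (upper quartile factors 43.4% and 37.7%). A minimum absolute log2 fold change of 1 left 1366 of 2076 called genes in IL10RAKO and 1586 of 2424 in DKO. Between DKO and IL10RAKO, 6 genes passed, 22 with the exact test, 24 with DESeq2 and 4 to 10 without single mice (10 without IL10RAKO mouse 2), and among pathway genes the exact test called 1 (SLCO2A1) in place of 0. Pathway calls in DKO ranged from 3 (without DKO mouse 2) to 9 without single mice, against 6.

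Signs turned only for values that did not pass. PTGER2 in IL10RAKO was 0.05, and -0.05, -0.27 and -0.13 with upper quartile factors, totals and 13 libraries (-0.14 to 0.34 without single mice). LTA4H in IL10RAKO was -0.11 with totals (0.00 to 0.37 without single mice) and in DKO 0.01 without the filter and 0.10 with 13 libraries (-0.24 to 0.15). PTGER4 in DKO was -0.13 with totals (-0.13 to 0.25, lowest without DKO mouse 2). Between DKO and IL10RAKO, PTGS2 was -0.01 with upper quartile factors (-0.18 to 0.22), DPEP2 0.02 with totals (-0.16 to 0.07) and DPEP1 -0.25 to 1.19 without single mice. The causes were not tested. No paired analysis was possible because the genotypes hold different mice and their numbers follow the order of the records. With 11 to 88 reads of ALOX5 per IL10RAKO or DKO library, its low levels are imprecise. The standard errors against WT were larger for PTGES (0.589 in IL10RAKO and 0.596 in DKO) than for ALOX5 (0.464 and 0.478).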
